A study of Rattus norvegicus with 6 samples.

Results

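The proteasome is the protein-digesting machine that breaks down most short-lived and damaged proteins of a cell once they carry a ubiquitin tag. Its genes were taken here as the protein-coding rows of the deposited gene table whose symbol begins with Psm, then a letter from a to g, then a digit. This rule found 50 of the 32930 gene rows, and all 50 passed the filter on low counts that left 18455 genes for testing. Liver RNA was sequenced in 2 groups of 3 animals. HFD animals received a high-fat diet with 0.5% CMC-Na, a vehicle. HTG animals received a high-fat diet with Huazhuo Tiaozhi granule (HTG), a mixture of medicinal herbs. Their titles and the series description read HTG while their treatment label reads HCG, and the group was taken from the titles. The series description gives 12 weeks of intervention for both groups, whereas the methods for rats describe a shorter gavage, begun after weeks of the diet alone, with the granule in the same vehicle. Every library came from an animal on the high-fat diet. The labels name rat and a rat genome build, the study's methods for the sequencing name C57BL/6 J mice, and all gene rows carry mouse Ensembl identifiers. The species of the animals is therefore unsettled, and coordinates below are those of the table, with no build named for them.

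The core particle is a barrel of stacked rings. Its outer rings are built of alpha subunits (Psma genes) that form the gate, and its inner rings of beta subunits (Psmb genes), of which Psmb5, Psmb6 and Psmb7 carry the cutting sites. Interferon-induced subunits, Psmb8, Psmb9 and Psmb10, can take the places of these catalytic subunits and form the immunoproteasome, which shapes peptides for class I antigen presentation. The regulatory cap holds a base, with the Psmc ATPases that unfold the substrate and the scaffold and ubiquitin-binding Psmd subunits, and a lid, whose Psmd14 removes the ubiquitin chain. Other activators, encoded by Psme genes, can dock in place of the cap, and Psmg1 to Psmg4 and Psmd5, Psmd9 and Psmd10 encode chaperones that assemble the core and the cap base. In liver, as in other tissues, Nfe2l1 is the transcription factor known to raise proteasome genes together when proteasome capacity falls short.

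No proteasome gene differed between HTG and HFD at an adjusted p under 0.05 (quasi-likelihood test of edgeR, adjusted by the Benjamini-Hochberg method). The same rule called 2 of all 18455 genes, or 0.0108%. DESeq2 called 1 proteasome gene higher and 8 lower in HTG at that threshold, against 6.6% and 8.14% of the 14725 genes to which it gave an adjusted p. At an edgeR adjusted p under 0.1, 2 proteasome genes were higher and 6 lower, against 5.41% and 5.43% of all genes tested. At an unadjusted p under 0.05, 5 were higher and 11 lower, against 12.3% and 12.4%. The HTG and HFD libraries did not overlap in 9 members that were higher and 14 that were lower in HTG, against 16.5% and 15.5% of all genes. The members' counts on the higher side thus lay close to the background, while 11 and 14 of 50 members on the lower side were above it. The members were chosen with earlier results of these data known, so these counts are a description. The median log2 fold change of the 50 members was -0.13, with a range of -1.02 to 0.69, and the median over all genes tested was 0.03. The class medians were -0.05 for the core, 0.42 for the immunoproteasome, -0.23 for the cap, -0.06 for the activators and 0.06 for the assembly genes. The ranges of the classes overlapped, and differences between classes were not tested.

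**Figure D1:**
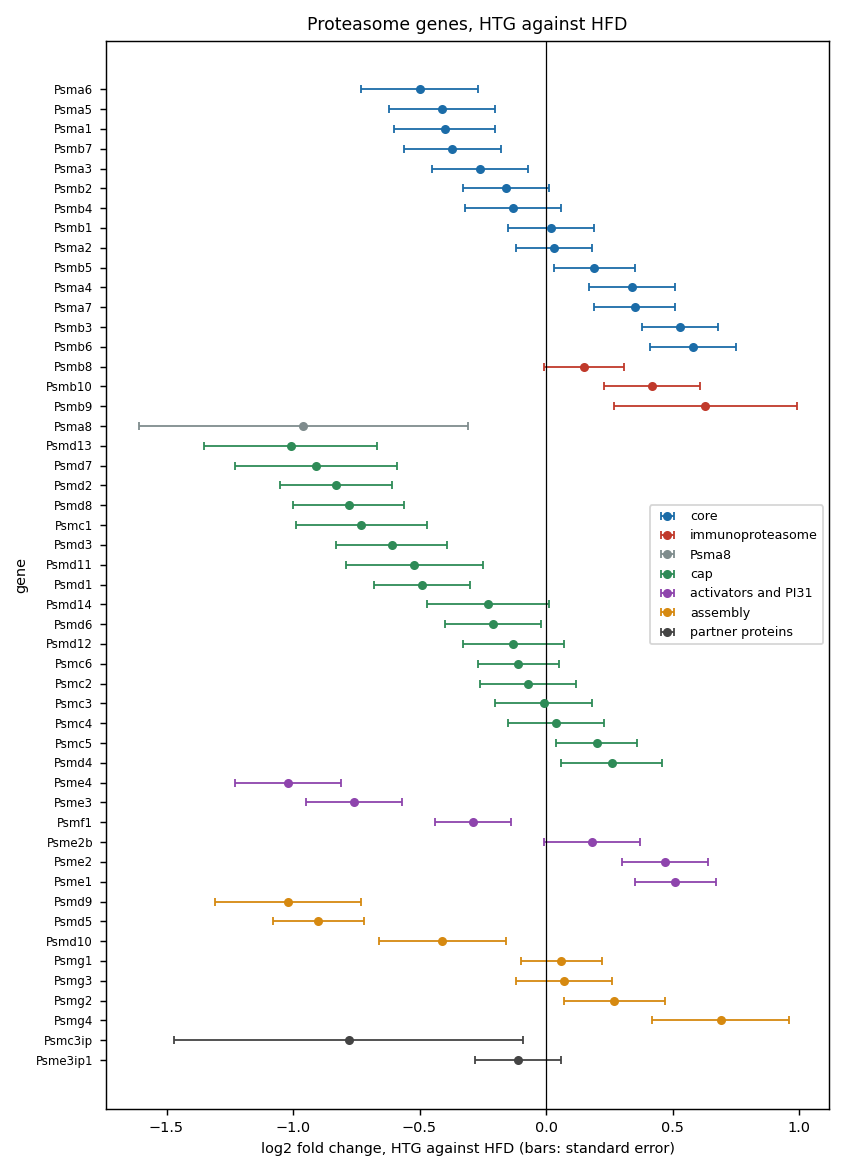
Log2 fold change of HTG against HFD for the 50 proteasome genes, coloured by class and ordered within each class; points are edgeR estimates from 3 libraries per group, bars are standard errors, and values left of 0 are lower in HTG. The cap genes extend to -1.01, the core genes stay between -0.50 and 0.58, and the activators and the assembly genes each fall on both sides of 0.

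Depth was 12662194 to 22640869 fragments per library, taken as the deposited counts divided by 4, since low counts came in steps of about 4. An empty gene was allowed up to 3 fragments, or 0.123 to 0.256 CPM, counts scaled to a common library size. The proteasome genes took 0.254% to 0.316% of all counts, and the lowest shares were in HTG 2 and HTG 3. Hepatocyte markers were the dominant markers in every library, with albumin (Alb) at 53500 to 74500 CPM.

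The 14 genes of the constitutive core were divided in sign, 7 with a positive and 7 with a negative log2 fold change, and their median was -0.05. Their summed level was the same in both groups, 516 ± 19.7 FPKM in HFD and 516 ± 49.2 in HTG (SD, n = 3; FPKM scales fragments by transcript length and library size). Psmb6, the catalytic subunit that cuts after acidic residues (chr11:70416193-70418684), was at 88.9, 95.4 and 77.6 CPM in HFD and at 134, 132 and 125 CPM in HTG. All HTG libraries exceeded all HFD libraries, with a log2 fold change of 0.58 ± 0.17 (SE) and an adjusted p of 0.0918 by edgeR. DESeq2 gave an adjusted p of 0.0492. Psmb3, a structural subunit of the beta ring (chr11:97594225-97604326), was at 62.6, 56.7 and 57.8 CPM in HFD and at 82.8, 88.5 and 84.5 CPM in HTG. These groups did not overlap either, and the log2 fold change was 0.53 ± 0.15 with an adjusted p of 0.091. They were the 2 core genes at an unadjusted p under 0.05.

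The other catalytic subunits of the core moved less. Psmb5, the chymotrypsin-like subunit and the target of the proteasome inhibitor bortezomib, was at 73.2, 71.4 and 62.2 CPM in HFD and at 84.2, 72.3 and 79.1 CPM in HTG. The groups overlapped, and its log2 fold change was 0.19 ± 0.16 with an adjusted p of 0.511. Psmb7, the trypsin-like subunit, was at 87.5, 90.5 and 78.2 CPM in HFD and at 81.2, 58.6 and 58.4 CPM in HTG. Its HTG 1 library lay within the HFD range while HTG 2 and HTG 3 lay below it, and the log2 fold change was -0.37 ± 0.19 with an adjusted p of 0.274. The 3 catalytic subunits of the core thus had estimates on both sides of 0.

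Within the alpha ring, 3 of 7 genes had a positive and 4 a negative log2 fold change. Psma6 was the lowest of the core, at 70.6, 83.5 and 69.3 CPM in HFD and 69.6, 38.8 and 49 CPM in HTG. HTG 1 stood within the HFD values, and the log2 fold change was -0.50 ± 0.23 with an adjusted p of 0.227. Psma7 had the highest estimate of the ring, 0.35 ± 0.16, with 86.3, 90.4 and 80.1 CPM in HFD and 116, 110 and 102 CPM in HTG. Its groups did not overlap, but its adjusted p was 0.226. Psma2 and Psmb1 lay at 0.03 and 0.02, and their sign was not stable between settings. Core subunits enter the particle in equal numbers. Their transcript levels per length in HFD ranged from 14.9 FPKM (Psma3) to 74 FPKM (Psmb5), a ratio of 4.97. In CPM these genes were close, with HFD means of 60.5 and 68.9. Their transcript lengths, implied by the ratio of counts to FPKM, were 1.06 and 0.246 times that of the median gene tested. The ratio of 4.97 thus rests mostly on these implied lengths, which were not checked. Psma8, the alpha subunit known from testis, was low, at 0.205 to 1.56 CPM, but above the limit for an empty gene in every library. Its log2 fold change of -0.96 ± 0.65 had an adjusted p of 0.397. Psmb11, the thymic subunit, was not analysed here.

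All 3 immunoproteasome genes had positive log2 fold changes, with a median of 0.42, but none was below an unadjusted p of 0.05. Psmb10 was at 41.7, 29 and 36.7 CPM in HFD and at 52.7, 48.4 and 42.7 CPM in HTG. The groups did not overlap, although HTG 3 stood only just above HFD 1, and the log2 fold change was 0.42 ± 0.19 with an adjusted p of 0.211. Psmb8 was at 42.1, 36.3 and 41.3 CPM in HFD and at 46.6, 40.5 and 46.1 CPM in HTG, with a log2 fold change of 0.15 ± 0.16 and an adjusted p of 0.576. Its HTG 2 library lay within the HFD range. Psmb9 was at 16.5, 8.52 and 21.5 CPM in HFD and at 15.2, 28.8 and 28 CPM in HTG, with a log2 fold change of 0.63 ± 0.36 and an adjusted p of 0.318. It varied most between libraries of the same group, and the HFD 2 value was the lowest of the 6. Psmb9 (chr17:34400961-34406738) overlaps by 212 bp with Tap1, the peptide transporter gene on the other strand, which had 159% of the counts of Psmb9 and whose value was also lowest in HFD 2, at 23 CPM. Whether the counting kept the strands apart was not stated, which bears on reads of that short stretch.

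The share of immunoproteasome to constitutive transcripts was compared as FPKM ratios within each library. Psmb8 to Psmb5 was 0.155 ± 0.0208 in HFD and 0.15 ± 0.00416 in HTG, and Psmb9 to Psmb6 was 0.0939 ± 0.048 in HFD and 0.0945 ± 0.0317 in HTG (SD, n = 3 each). Neither ratio showed a difference beyond the spread of its libraries, with an exact permutation p of 0.8 for each. Psmb10 to Psmb7 was 0.956, 0.641 and 0.941 in HFD and 1.3, 1.66 and 1.47 in HTG, so the HTG libraries were all higher than the HFD libraries. The log2 difference was 0.82, and the two-sided exact permutation p was 0.1, the smallest that 3 libraries against 3 can give, or 0.2 after Benjamini-Hochberg adjustment over 4 ratios. The last of these ratios, Psme1 to Psme3 below, was chosen after its values had been seen. Its p was also 0.1, so including it made the adjusted value lower. Psmb7 overlaps Nek6 by 6571 bp on the opposite strand, and Nek6 had 89.1% of the counts of Psmb7, at 56.7, 65.2 and 70.4 CPM in HFD and 74.2, 49.9 and 105 CPM in HTG. How many reads the pair shares was not tested, and values of the whole genes do not show it. On the FPKM scale the groups of Psmb7 did not overlap, at 22.7 to 25.7 in HFD and 14.9 to 22.2 in HTG, while those of Psmb10 did, at 15.3 to 24.5 and 21.8 to 28.8.

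**Figure D2:**
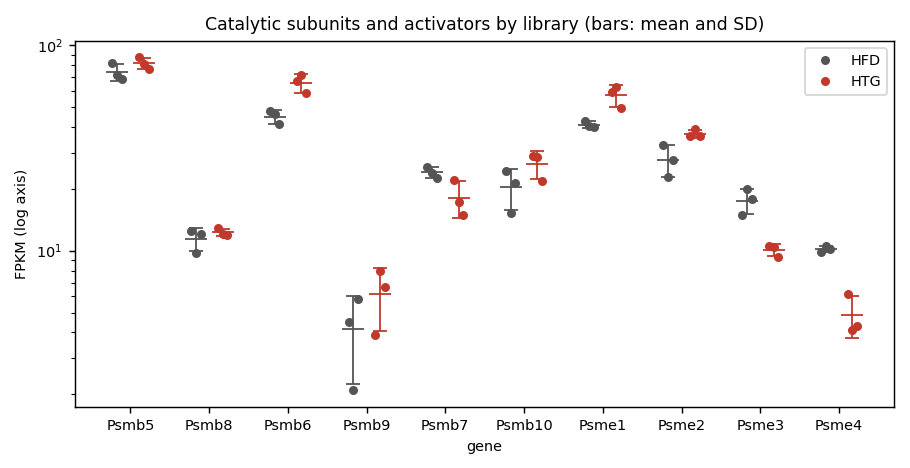
FPKM on a log axis for the catalytic subunits of the core, each beside its immunoproteasome counterpart, and for the Psme activators; each point is 1 library, and the bars give the mean and SD of the 3 HFD (grey) and 3 HTG (red) libraries. Psmb6, Psme1 and Psme2 are above every HFD library in HTG, Psmb7, Psme3 and Psme4 are below, and the groups of Psmb5, Psmb8, Psmb9 and Psmb10 overlap.

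Lymphocytes and macrophages carry more immunoproteasome than hepatocytes do, so their markers were measured beside these genes. All 8 lymphocyte markers overlapped between the groups, and their summed level was 4.32 to 7.4 FPKM in HFD and 5.18 to 6.53 in HTG. Cd79a, a B cell marker, was at 0 counts in HTG 3, and Cd3e, a T cell marker, was at 0.626 to 1.75 CPM. The 8 macrophage markers all had negative estimates, but 6 of them overlapped between the groups, among them Clec4f at -0.08 and Timd4 at -0.02. Their summed level was 106 to 290 FPKM in HFD and 106 to 215 in HTG. Adgre1, which encodes the macrophage surface protein used to define these cells, was at 21.3, 17.1 and 27.8 CPM in HFD and at 9.88, 7.26 and 5.76 CPM in HTG. Its log2 fold change was -1.53 ± 0.26, with an adjusted p of 0.0538 by edgeR and 3.64e-05 by DESeq2. The lymphocyte sum and the macrophage sum were both lowest among HFD libraries in HFD 2, where Psmb8, Psmb9 and Psmb10 were also lowest. This was not particular to immune cells. The sums of sinusoidal endothelial, stellate and red cell markers were also lowest in HFD 2, at 7.03, 29.5 and 206 FPKM. The hepatocyte sum was not. The part of lymphocytes and macrophages in the result was not tested. In bulk liver RNA, fewer cells of a type cannot be told apart from less RNA per cell.

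The regulatory cap was the class with the most genes on the lower side. Of its 17 genes, 14 had a negative log2 fold change, 7 were lower at an unadjusted p under 0.05 and none was higher, and the median was -0.23. Of all genes tested, 48.4% had a negative estimate, 12.4% were lower and 12.3% higher at that threshold. The summed level of the cap was 430, 463 and 458 FPKM in HFD and 440, 325 and 331 FPKM in HTG. HTG 1 thus lay within the HFD range, and the HTG mean of 366 ± 64.9 was set against an HFD mean of 450 ± 17.8 (SD, n = 3).

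The lid accounted for 4 of the 7 lower cap genes, and all 8 lid genes with Psm names had a negative log2 fold change. Their median was -0.56. Sem1, a lid subunit outside these names that is described below, lay at 0.88. Psmd13, a structural lid subunit, was at 60.7, 83.6 and 66.6 CPM in HFD and at 53.2, 18.9 and 32.9 CPM in HTG. The groups did not overlap, HTG 2 was the lowest library by a wide margin, and the log2 fold change was -1.01 ± 0.34 with an adjusted p of 0.123. Psmd7, the partner of the deubiquitinase Psmd14 in the lid, was at 59.6, 82.3 and 62.2 CPM in HFD and at 53.2, 21 and 34.3 CPM in HTG, a log2 fold change of -0.91 ± 0.32 with an adjusted p of 0.131. Its libraries stood in the same order as those of Psmd13. Psmd8 was at 81.9, 106 and 95 CPM in HFD and at 70.6, 43.2 and 50.8 CPM in HTG, with a log2 fold change of -0.78 ± 0.22 and an adjusted p of 0.0886. Psmd3 was at 85.5, 111 and 100 CPM in HFD and at 82.6, 53.1 and 58.9 CPM in HTG, with a log2 fold change of -0.61 ± 0.22 and an adjusted p of 0.135. In Psmd3 the HTG 1 value stood directly beneath the HFD 1 value. DESeq2 gave adjusted p values of 0.0237 for Psmd13, 0.0336 for Psmd7 and 0.0188 for Psmd8. The other lid genes, Psmd6, Psmd11, Psmd12 and Psmd14, overlapped between the groups, with log2 fold changes of -0.52 to -0.13. Psmd14, the deubiquitinase, was at 33.5, 36.9 and 50.3 CPM in HFD and at 42.3, 25.1 and 35.8 CPM in HTG.

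In the base, the 2 large scaffold subunits were lower and Psmd4, a ubiquitin receptor, was not. Psmd2 was at 121, 133 and 154 CPM in HFD and at 95.7, 58.6 and 75.8 CPM in HTG. The groups did not overlap, and the log2 fold change was -0.83 ± 0.22 with an adjusted p of 0.0796 by edgeR and 0.0106 by DESeq2. Psmd1, the other scaffold, was at 58.1, 63.8 and 79.4 CPM in HFD and at 53.7, 43.1 and 46.9 CPM in HTG, a log2 fold change of -0.49 ± 0.19 with an adjusted p of 0.154. Psmd4, which binds ubiquitin chains, had the highest estimate of the cap, 0.26 ± 0.20, at 103, 134 and 95.9 CPM in HFD and 148, 119 and 131 CPM in HTG, and its groups overlapped.

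The 6 ATPases of the base had a median log2 fold change of -0.04, and these proteins work as a ring that needs all of them. Psmc1 alone among them was below an unadjusted p of 0.05, at 76.7, 95.3 and 88.2 CPM in HFD and 73.2, 37.3 and 46.4 CPM in HTG. Its log2 fold change was -0.73 ± 0.26 with an adjusted p of 0.133. Psmc5 was at 71.7, 75.5 and 70.6 CPM in HFD and at 93.7, 76 and 80.3 CPM in HTG, so that its groups did not overlap in the other direction, with 0.20 ± 0.16 and an adjusted p of 0.487. Psmc2, Psmc3, Psmc4 and Psmc6 lay between -0.11 and 0.04. Per length, the ATPase transcripts in HFD ranged from 13.6 FPKM (Psmc2) to 50.3 FPKM (Psmc5). In CPM the HFD means of these genes were close, at 71 and 72.6, and their implied lengths were 1.38 and 0.382 times that of the median gene.

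The 3 HTG libraries were not alike in the cap. HTG 1 was the highest HTG library in 17 of 17 cap genes, and HTG 2 was the lowest in 16 of 17. Among all genes with a negative estimate, HTG 1 was the highest HTG library in 50.5% and HTG 2 the lowest in 46.5%. The order was not particular to the cap. In the 14 core genes the shares were 78.6% and 64.3%. Among the 30 members with a negative estimate, those of the cap included, they were 90% and 83.3%. Differences between these shares were not tested. Without HTG 1, 6 members passed an adjusted p of 0.05 by edgeR, all lower: Psmc1, Psmd13, Psmd5, Psmd8, Psmd7 and Psme4. In that fit 653 of 19304 genes passed it, against 2 of 18455 with all libraries. At an unadjusted p under 0.05, 17 members were lower without HTG 1, where 25.7% of all genes passed in either direction. Without HTG 3 the number was 6, with 17.9% of all genes, and without HFD 2 it was 7, with 20.3%. The median of the cap was -0.45 without HTG 1 and lay between -0.45 and -0.14 over all libraries left out in turn.

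**Figure D3:**
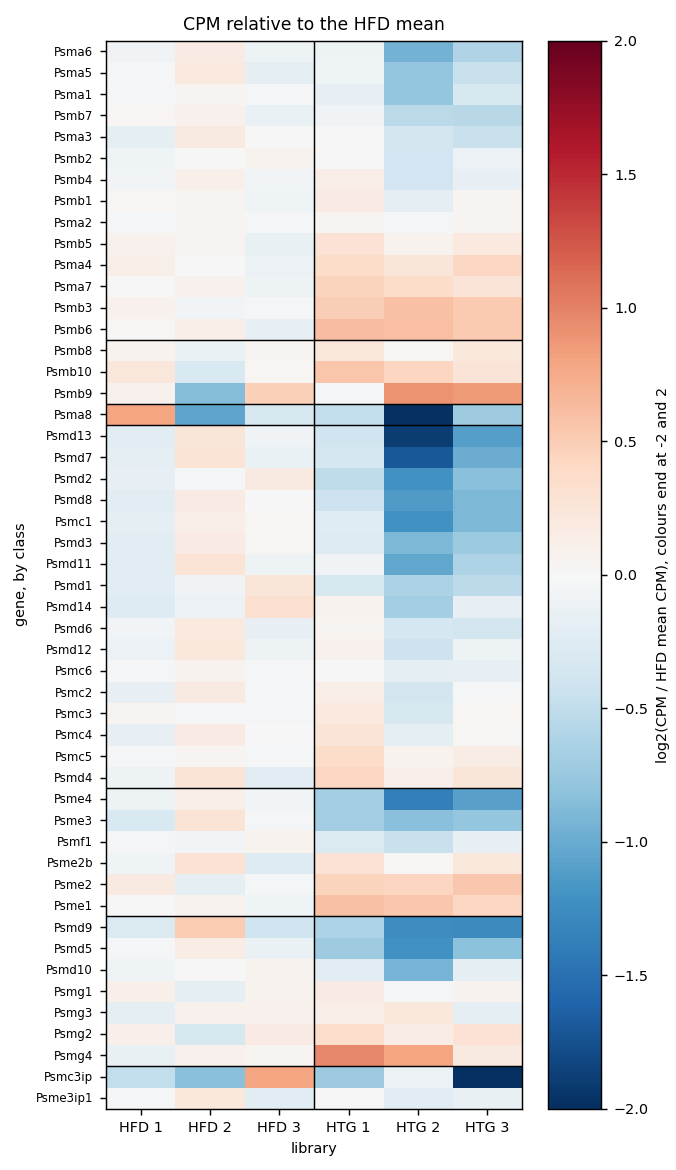
CPM of the 50 proteasome genes in each library, as log2 of the ratio to the mean of the 3 HFD libraries, with genes grouped by class in the order core, immunoproteasome, Psma8, cap, activators and proteasome inhibitor, assembly and partner proteins; red is above the HFD mean, blue is below, and colours end at -2 and 2. In the cap, HTG 1 is the palest or reddest HTG column in 17 of 17 genes and HTG 2 the bluest in 16 of 17, while Psmb6, Psmb3, Psme1 and Psme2 are red and Psme3, Psme4 and Psmd5 blue in all 3 HTG columns.

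Some of the lower genes share ground with other rows of the table. Psmd13 overlaps Sirt3 by 342 bp on the opposite strand, which had 117% of its counts and a log2 fold change of -0.27 ± 0.20, and a processed pseudogene on the same strand, Gm15542, with 23.3% of its counts. Gm15542 was at 9.76, 16.4 and 14.6 CPM in HFD and at 13.2, 8.96 and 9.01 CPM in HTG. In all, 24 members overlap another row, 9 of them on the same strand. Of the 34 overlapping rows, 11 held over 10% of the counts of the member they overlap.

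The activators were divided by type. Psme1 and Psme2, which encode the interferon-inducible ring that opens the core, were both higher in HTG. Psme1 was at 94.3, 99.2 and 88.9 CPM in HFD and at 141, 137 and 125 CPM in HTG, with a log2 fold change of 0.51 ± 0.16 and an adjusted p of 0.108. Psme2 was at 57.4, 44.7 and 49.5 CPM in HFD and at 68.5, 67.9 and 73.4 CPM in HTG, with a log2 fold change of 0.47 ± 0.17 and an adjusted p of 0.133. Neither gene's groups overlapped. They are near neighbours on chromosome 14 (chr14:55815580-55818985 and chr14:55824898-55828558). Psme2b, a near copy of Psme2 whose reads could be split with it, was at 11.8 to 17.3 CPM in HFD and 14.4 to 17.3 CPM in HTG.

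Psme3, which encodes the nuclear relative of this ring, and Psme4, which encodes the large single-chain activator, were both lower in HTG. Psme3 (chr11:101207039-101214363) was at 43.7, 65 and 53 CPM in HFD and at 33.3, 30.3 and 31.6 CPM in HTG. The log2 fold change was -0.76 ± 0.19, with an adjusted p of 0.0655 by edgeR and 0.011 by DESeq2. Psme4 (chr11:30721726-30830361) was at 82.7, 97.7 and 85.6 CPM in HFD and at 55.6, 34.2 and 41.7 CPM in HTG. Its log2 fold change of -1.02 ± 0.21 corresponded to an HTG level 0.494 times that of HFD, with an adjusted p of 0.0592 by edgeR and 0.00117 by DESeq2. In both genes every HTG library lay below every HFD library, HTG 1 included. Psmf1, which encodes a proteasome inhibitor, was at 31.6, 30.8 and 33.6 CPM in HFD and at 26.1, 23.5 and 28.6 CPM in HTG, and although its groups did not overlap the adjusted p was 0.273.

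The opposite directions within the Psme family were also put as a ratio within each library, a ratio chosen after the values of both genes had been seen. Psme1 to Psme3 was 2.88, 2.04 and 2.24 in HFD and 5.63, 6.02 and 5.3 in HTG, by FPKM. The means were 2.38 ± 0.44 and 5.65 ± 0.36 (SD, n = 3), and the groups stood far apart, but the two-sided exact permutation p was again 0.1, or 0.2 adjusted over the 4 ratios.

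Among the assembly chaperones, the 4 that act on the core, Psmg1 to Psmg4, had positive estimates with a median of 0.17. Of these, 1 was higher at an unadjusted p under 0.05, as were 12.3% of all genes, and 3 overlapped between the groups. Psmg1 and Psmg3, at 0.06 and 0.07, changed sign when libraries were left out. Psmg4 was at 3.57, 4.21 and 4.12 CPM in HFD and at 7.74, 6.89 and 4.5 CPM in HTG, the highest estimate of all members, 0.69 ± 0.27, with an adjusted p of 0.159. HTG 3 stood little above the HFD libraries.

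The 3 chaperones of the cap base, Psmd5, Psmd9 and Psmd10, had negative estimates. Of these, 2 were lower at an unadjusted p under 0.05, as were 12.4% of all genes. In all 3 the HTG libraries lay below the HFD libraries, as in 15.5% of all genes. Their median length was 1.97 times that of the median gene tested, against 0.422 for the core chaperones. Psmd5 (chr2:34739746-34764980) was at 29.5, 33.2 and 27.2 CPM in HFD and at 18.3, 12.9 and 17 CPM in HTG. Its log2 fold change was -0.90 ± 0.18, with an adjusted p of 0.0585 by edgeR, the lowest of the 50 members, and 0.00332 by DESeq2. Psmd5 overlaps Cutal by 573 bp on the opposite strand, which had 142% of its counts, at 38.4, 23.3 and 44.4 CPM in HFD and 28.7, 24.9 and 36.6 CPM in HTG. The groups of Cutal overlapped while those of Psmd5 did not, and reads shared by this pair were not tested. Psmd9 was at 31.6, 55 and 29.4 CPM in HFD and at 25.1, 16.3 and 16 CPM in HTG, a log2 fold change of -1.02 ± 0.29 with an adjusted p of 0.0885. The HFD 2 value stood above all others, and the estimate was -0.68 without that library. Psmd9 overlaps Hpd, an abundant liver enzyme gene of tyrosine breakdown on the opposite strand, which had 6800% of the counts of Psmd9. Hpd was at 2170, 2540 and 2090 CPM in HFD and at 1990, 1540 and 1240 CPM in HTG, so it too was highest in HFD 2 and below the HFD libraries in HTG. The span of Hpd, 10921 bp, lies wholly within that of Psmd9, and how many reads the pair shares was not tested. Psmd10, known as gankyrin, was at 8.34, 8.85 and 9.27 CPM in HFD and at 7.52, 4.61 and 7.77 CPM in HTG, a log2 fold change of -0.41 ± 0.25 with an adjusted p of 0.339.

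Psmc3ip and Psme3ip1 match the name rule but encode binding partners, not subunits. Psme3ip1 was at 25.6, 30.4 and 22.4 CPM in HFD and at 26.4, 22.5 and 23.5 CPM in HTG, with overlapping groups. Psmc3ip, a recombination factor, was at 0.149 to 1.29 CPM, below that limit for an empty gene in HTG 3, and Mlx on the opposite strand had 5780% of its counts. A further 4 rows of the name pattern were not protein-coding and were left out. The highest of them, Psma5-ps, held 23 to 163 counts.

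The members also differed by the length of their transcripts, taken from the ratio of counts to FPKM. Of the 25 shorter members 13 had a positive log2 fold change, and of the 25 longer members 7 did. Across the 50 genes Spearman's rho between length and log2 fold change was -0.401, and over 18454 genes tested it was -0.156. Genes of the same library share its fragment lengths and depth and are not independent replicates. Within the core rho was 0.0549 (n = 14) and within the cap -0.279 (n = 17). Each library's length trend was then removed, a setting chosen after seeing the data. At an unadjusted p under 0.05, 3 rather than 5 members were then higher and 14 rather than 11 lower. In that setting 24.1% of all genes passed in either direction. The part of transcript length in the differences was not tested further.

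**Figure D4:**
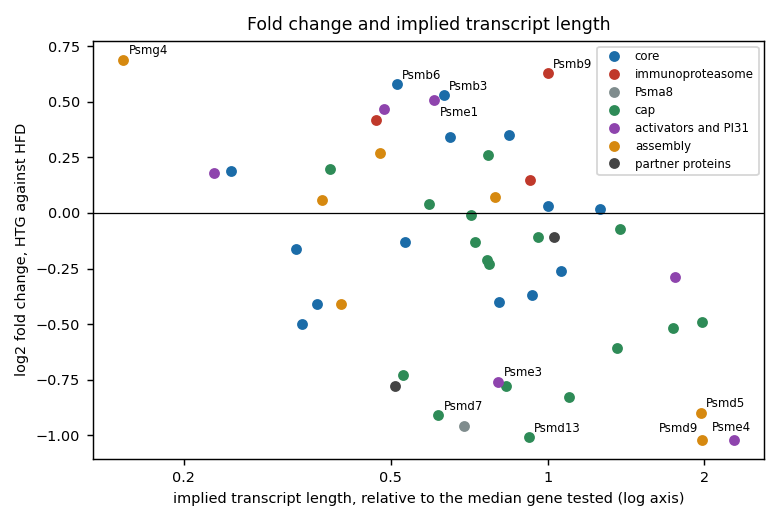
Log2 fold change of HTG against HFD plotted against transcript length relative to the median gene tested, on a log axis, for the 50 proteasome genes coloured by class. The shortest, Psmg4, has the highest estimate and the longest, Psme4, the joint lowest, but Psmd7 and Psmd13, shorter than the median gene, are also near -1.

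Genes that work with the proteasome were drawn from 7 lists of 43 genes, of which 42 were tested and Paaf1 was not analysed here. None was at an adjusted p under 0.05 by edgeR. At an unadjusted p under 0.05, 5 were higher and 11 lower, and their median log2 fold change was -0.17. By DESeq2 at an adjusted p under 0.05, 2 of them were called higher and 8 lower, against 6.6% and 8.14% of all genes with an adjusted p. Against the 12.3% and 12.4% of all genes given above, the 5 were near the background and the 11 were above it. The lists were chosen with earlier results of these data known, so these counts are a description and not independent evidence.

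Sem1, the smallest lid subunit, which lies outside the Psm names, went the other way from the lid. It was at 16.5, 20.3 and 14.4 CPM in HFD and at 31.4, 33 and 30.1 CPM in HTG, with a log2 fold change of 0.88 ± 0.17 and an adjusted p of 0.0582. All HTG libraries were above all HFD libraries. Adrm1, another ubiquitin receptor of the cap, lay at -0.24 ± 0.24, and Pomp, the maturation factor of the core, at 0.17 ± 0.19, each with overlapping groups. Ube3c, a ubiquitin ligase that works on the proteasome, was at 21.7, 28.7 and 32 CPM in HFD and at 12.3, 10.5 and 11 CPM in HTG. Its log2 fold change of -1.29 ± 0.19 had an adjusted p of 0.0538. Zfand2a, an arsenite-inducible protein that binds the proteasome, lay at -0.69.

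The shuttle receptors, which carry tagged proteins to the cap, had negative estimates in 6 of 6 genes, against 48.4% of all genes tested. Of these, 4 were lower at an unadjusted p under 0.05, against 12.4% of all genes. Rad23b, Ubqln1 and Ubqln2 lay at -0.50, -0.64 and -1.03. Of the 5 genes of the segregase that extracts tagged proteins, Vcp, its ATPase, lay at -0.82 ± 0.23 with an adjusted p of 0.0823. Nploc4, its cofactor, lay at -1.14 ± 0.24 with an adjusted p of 0.0585. Ufd1, which pairs with Nploc4, lay at 0.35 ± 0.16 with an adjusted p of 0.214 and no overlap between the groups, Nsfl1c lay at 0.04 and Faf2 at -0.01, so the median of the 5 was -0.01. Uba1, the main ubiquitin-activating enzyme, lay at -0.60 ± 0.20 with an adjusted p of 0.12.

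Nfe2l1 itself was at 93.1, 128 and 114 CPM in HFD and at 84.8, 59.2 and 62.3 CPM in HTG. The groups did not overlap, and the log2 fold change was -0.70 ± 0.21 with an adjusted p of 0.0988. Ngly1, the enzyme that removes the sugars of Nfe2l1 protein, lay at -0.71 ± 0.22. Syvn1, a ligase that marks Nfe2l1 protein for breakdown, was at 74.2, 64.8 and 57.2 CPM in HFD and at 123, 96.6 and 155 CPM in HTG. Its log2 fold change was 0.93 ± 0.22, with an adjusted p of 0.0627. In the same list of 5 genes, Nfe2l2 lay at -0.16 ± 0.24 and Sel1l at -0.08 ± 0.17, each with overlapping groups. The median of the 5 was -0.16. The 8 genes of class I antigen processing and its inducers had a median of 0.17. Nlrc5 and Irf1, inducers of the immunoproteasome and of class I genes, were higher at an unadjusted p under 0.05, at 0.59 ± 0.20 and 0.52 ± 0.20 with adjusted p values of 0.121 and 0.159. Tap1 lay at 0.27 ± 0.20 with overlapping groups.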

How the data were processed

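Liver RNA of 3 HFD and 3 HTG animals was sequenced. For each gene and library, the table the authors deposited holds an estimated count, given as a whole number without scaling between libraries. It also holds the FPKM the authors derived by scaling to transcript length and library size. Per the labels, the submitters' processing notes name HISAT2, StringTie and SAMtools, without versions, and the rat build mRatBN7.2. The strand setting of the counting is not given in the sources used here. The labels name a library kit, whereas the methods describe a strand-marking protocol.

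Deposited counts were tested with edgeR 4.0.16 under R 4.3.3 (filterByExpr, TMM factors, glmQLFit and glmQLFTest on the group term), with Benjamini-Hochberg adjustment over 18455 genes. CPM values use TMM library sizes. DESeq2 1.42.0 and limma 3.58.1, on log2(FPKM + 0.1) at a mean FPKM of at least 1, were alternatives, beside other scalings, no filter, counts divided by 4, a replicate block and each library left out. Scripts were tested on simulated data. FPKM ratios were compared by two-sided exact permutation tests. A non-overlap means that every HTG library lay on the same side of every HFD library in CPM. P-values measure the spread between these libraries, since the labels do not say more of how they were sampled.

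Members, classes and lists were chosen with earlier results of these data known. Psmb5 to Psmb10, members at an unadjusted p under 0.05 or with non-overlapping groups (at most 15, by smallest p), the extremes of each class and members at the limit of an empty gene were described in full. From the lists, genes at an unadjusted p under 0.05 and Nfe2l1, Pomp, Adrm1, Sem1 and Tap1 were named, except for a few that are not reported here.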

Additional observations from a re-analysis of the deposited data

How the results depend on the processing

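Against 0 members at an adjusted p under 0.05 by edgeR, DESeq2 gave 9, limma on FPKM 4 and edgeR on counts divided by 4 gave 2, and leaving out each library gave 0 to 6. Over all genes these settings called 2171, 878 and 822, against 2. Members higher at an unadjusted p under 0.05 numbered 3 with the length trend removed and 3 to 5 without each library. Members lower numbered 6 to 17, and higher list genes 3 to 5, without each library. Of all genes, 24.1% passed that threshold in either direction with the length trend removed, and 16.2% to 25.7% without each library. Medians without each library were -0.19 to 0.02 for the core and -0.45 to -0.14 for the cap, and the assembly median was -0.12 with the length trend removed. The cause of these shifts was not tested. Estimates near 0 changed sign. Psmc3 was 0.02 with upper-quartile scaling, 0 on counts divided by 4 and -0.17 to 0.12 without each library. Psmb1 was -0.01 by DESeq2, 0 with DESeq2 size factors, -0.03 by limma and -0.10 to 0.11 without each library. Psma2 was -0.01 by limma and -0.02 to 0.06 without each library. Psmc4 was -0.01 by limma, -0.04 with the length trend removed and -0.13 to 0.14 without each library. With the length trend removed, Psmb5 was -0.07, Psmg1 -0.12 and Psme2b -0.08. Without each library, Psmg1 spanned -0.03 to 0.11, Psmd12 -0.29 to 0, Psmc2 -0.23 to 0.06, Psmg3 -0.01 to 0.19 and Psme3ip1 -0.23 to 0. Same-numbered libraries of the groups correlated at -0.153, -0.121 and 0.212, and the other pairs at -0.208 to 0.318. These values overlap and come from 3 libraries a group, so they cannot show whether the numbers pair the libraries. A replicate block gave 4 members higher, 10 lower and 0 at an adjusted p under 0.05. With 3 libraries a group, differences within the spread were not detectable.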
